A study of Mus musculus with 7 samples.

Results

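Naive CD4 T cells and the effector cells they give rise to are kept apart by opposing transcription factors, and 10 of these genes are described here, chosen by name, with earlier results of these arrays known. The naive factors were Tcf7, Lef1, Bach2, Foxo1, Satb1 and Id3, and the effector factors were Bhlhe40, Prdm1, Id2 and Irf4. A member was measured by the probe sets that the array annotation pairs with it and with no other gene, which left 9 of the 10 among 18193 genes with such a probe set, and all 9 passed the filter on dim genes that left 11460 genes. Tcf7, the gene of TCF-1, was not analysed here. Levels are given as log2(intensity + 1) of the brightest probe set of a gene, so a difference of 1 is close to a doubling.

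RNA came from CD4+ CD3+ T cells sorted from peripheral nodes (axillary, brachial, inguinal, cervical, facial) of males 3 weeks old, after depletion of cells bearing B220, CD8, CD11b, CD11c or NK1.1. Sf.Il2-/- mice, which carry the scurfy mutation of Foxp3 (Foxp3sf) and a null allele of Il2 (B6.129P2-Il2tm1Hor/J), gave 3 arrays labelled as biological replicates. Sf mice (B6.Cg-Foxp3sf/J), scurfy with no Il2 mutation named, gave 3 likewise, and C57BL/6 (B6) mice, wild type, gave 1 from the pooled nodes of 2 mice. Both mutants thus share the Foxp3 mutation, which disables the factor that defines regulatory T cells, and scurfy mice develop inflammatory disease.

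In resting T cells TCF-1 and LEF-1, related HMG-box proteins, bind the same DNA sequence and maintain T cell identity. FOXO1 stays in the nucleus while the kinase AKT is inactive and there drives genes of survival and lymph node homing, and BACH2 represses effector genes, Prdm1 among them. SATB1 organises chromatin, and ID3 holds E proteins, the activators that bind E-boxes, away from DNA. After antigen receptor signalling IRF4 is induced in proportion to the signal, BHLHE40 permits cytokine production, BLIMP-1 (Prdm1) represses genes of the naive and follicular states, and ID2, a relative of ID3, takes part in effector differentiation.

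Median intensities of the 7 arrays spanned 29.3 to 32.4, with upper quartiles of 115 to 130 in Sf.Il2-/-, 110 to 145 in Sf and 141 in B6. Sf 3 was the Sf array with the upper quartile of 145, and all 9 members read highest there among the Sf arrays, which fell to 5 of 9 after quantile normalization. By their dim probe sets, not by the labels, the arrays divide into set 1 (Sf.Il2-/- 1 and 2, Sf 1 and 2) and set 2 (Sf.Il2-/- 3, Sf 3 and B6), although the lowest correlation within sets, 0.553, was no higher than the highest between them, 0.554. Foxp3 read 4.20 to 4.41 in Sf.Il2-/-, 5.87 to 6.32 in Sf and 7.25 in B6. The probe set of Il2 read 7.17 to 8.20 in the arrays labelled Sf.Il2-/-, 5.09 to 7.35 in Sf and 5.22 in B6, so it was not lower in them. Whether that probe set lies in the stretch removed by the Il2tm1Hor allele is unknown here, so it does not check the genotype.

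The sequences just upstream of 4 members are shown because several of these factors are known to act on each other's genes. RefSeq promoter windows (GRCm38.p6) were found for 8 of the 9 analysed members, 15 windows in all, and the 250 bases before the start were searched on both strands for 6 motifs. They were CACGTG (the E-box that BHLHE40 favours, also a match to CANNTG), CANNTG (any E-box), CTTTGAT (TCF-1 and LEF-1), GTAAACA (forkhead factors such as FOXO1), TGANTCA (AP-1 and BACH2) and a tandem of GAAA and GAAA with 2 bases between them (IRF factors). Foxo1 and Bach2 are shown as the naive factors that fell in both mutants, and Prdm1 and Id2 as effector factors, each 5′ to 3′ on the strand of the gene with every match in capitals.
Foxo1: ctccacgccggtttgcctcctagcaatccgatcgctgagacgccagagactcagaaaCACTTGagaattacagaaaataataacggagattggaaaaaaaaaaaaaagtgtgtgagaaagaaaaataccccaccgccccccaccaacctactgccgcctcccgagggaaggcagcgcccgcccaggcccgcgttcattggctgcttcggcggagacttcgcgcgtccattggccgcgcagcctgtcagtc
Bach2: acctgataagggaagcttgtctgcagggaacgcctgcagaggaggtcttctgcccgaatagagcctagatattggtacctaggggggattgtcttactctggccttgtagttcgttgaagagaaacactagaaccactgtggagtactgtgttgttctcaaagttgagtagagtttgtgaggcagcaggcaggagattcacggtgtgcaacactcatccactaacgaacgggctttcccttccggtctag
Prdm1: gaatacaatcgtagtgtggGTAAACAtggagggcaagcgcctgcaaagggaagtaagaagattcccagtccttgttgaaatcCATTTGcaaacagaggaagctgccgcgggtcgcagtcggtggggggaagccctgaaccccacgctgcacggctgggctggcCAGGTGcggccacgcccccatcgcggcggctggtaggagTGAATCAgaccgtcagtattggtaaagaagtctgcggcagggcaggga
Id2: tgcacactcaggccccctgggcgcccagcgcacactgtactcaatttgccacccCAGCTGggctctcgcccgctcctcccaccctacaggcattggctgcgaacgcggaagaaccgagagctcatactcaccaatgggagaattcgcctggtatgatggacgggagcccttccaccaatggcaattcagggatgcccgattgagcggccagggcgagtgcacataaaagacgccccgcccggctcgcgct
The Foxo1 window (chr3:52268087-52268336, plus strand) and the Id2 window (chr12:25096093-25096342, minus strand) each held 1 E-box. The Bach2 window (chr4:32417185-32417434, plus strand) held none of the 6 motifs. The Prdm1 window (chr10:44458749-44458998, minus strand) was the only member window with the forkhead motif, 231 bases before the start, or with TGANTCA, 48 bases before it, and it held E-boxes at 168 and 87 bases. Over all 32851 windows of this length 3.17% held GTAAACA, 6.75% TGANTCA and 66.2% CANNTG, while CACGTG (6.02%) was met once among the members, in a window of Lef1, and CTTTGAT (3.21%) and the GAAA tandem (2.98%) in none. A match is a run of letters and not a measured site.

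Against B6, every naive factor measured read lower in each of the 6 mutant arrays and every effector factor higher. That is common over all genes, of which 44.5% lay wholly below B6 in Sf.Il2-/- and 46.9% in Sf, while 24.7% lay wholly above it in Sf.Il2-/- and 19.6% in Sf. Past the threshold (limma, Benjamini-Hochberg adjusted p under 0.05 over all 11460 genes), 2 of 5 naive factors fell in Sf.Il2-/- and 3 of 5 in Sf, against 1.2% and 1.16% of all genes called lower. Of the 4 effector factors 1, Bhlhe40, rose in each mutant, against 1.49% and 1.31% of all genes called higher. At an unadjusted p under 0.05 there were 8 of the 9 factors in Sf.Il2-/- (all but Id3) and 9 in Sf, against 18.6% and 22.5% of all genes. Both mutants are set against the same single B6 array, so their differences from it are not independent, and the spread of B6 is assumed to equal that of the mutants.

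Bach2, the repressor of effector genes, was the naive factor furthest below B6. It read 7.90, 7.83 and 8.24 in Sf.Il2-/-, 8.35, 8.10 and 8.66 in Sf, and 10.66 in B6. All 6 mutant arrays lay at least 1.99 below the B6 array, and the mutant groups overlapped. It fell by 2.66 ± 0.32 in Sf.Il2-/- (log2 ± SE over 3 arrays and 1, or 6.34-fold, adjusted p = 0.00481), and it fell by 2.29 ± 0.32 in Sf (4.88-fold, adjusted p = 0.0094). These were the 20th and 33rd largest falls of the 11460 genes.

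Foxo1, whose product drives quiescence and homing genes, read 9.20, 9.36 and 9.75 in Sf.Il2-/-, 9.28, 9.18 and 9.60 in Sf, and 11.28 in B6. The mutant groups lay on top of each other and far below B6. It fell by 1.84 ± 0.30 in Sf.Il2-/- (3.58-fold, adjusted p = 0.0176), and it fell by 1.93 ± 0.30 in Sf (3.80-fold, adjusted p = 0.0153). The call in Sf.Il2-/- was lost when Sf.Il2-/- 1 was left out (adjusted p = 0.057). It was also lost with the mean of the Foxo1 probe sets (-1.44, adjusted p = 0.0509).

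Lef1, the relative of TCF-1, read lowest in Sf and between Sf and B6 in Sf.Il2-/-. Its values were 9.94, 10.20 and 10.19 in Sf.Il2-/-, 9.25, 9.03 and 9.66 in Sf, and 11.13 in B6. No array of one group overlapped another. It fell by 1.82 ± 0.29 in Sf (3.53-fold, adjusted p = 0.0165), a call lost without Sf 1 (adjusted p = 0.0524). In Sf.Il2-/- the difference from B6 was -1.02 ± 0.29 and did not pass (adjusted p = 0.115), although without Sf 3 it did (adjusted p = 0.0129), and so did the difference of -0.70 after quantile normalization (adjusted p = 0.0319).

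Satb1 and Id3 differed less from B6 and did not pass in either mutant. Satb1, the chromatin organiser, read 11.50, 11.45 and 11.44 in Sf.Il2-/-, 11.08, 10.87 and 11.62 in Sf, and 12.09 in B6. Its differences were -0.62 ± 0.27 in Sf.Il2-/- (adjusted p = 0.256) and -0.90 ± 0.27 in Sf (adjusted p = 0.105). Id3, the E protein inhibitor of resting cells, read 8.15, 8.28 and 8.46 in Sf.Il2-/-, 7.72, 6.73 and 7.97 in Sf, and 8.73 in B6. The Sf.Il2-/- arrays came within 0.27 to 0.58 of the B6 array, while Sf 2 lay 2.00 below it. The differences of Id3 were -0.43 ± 0.44 in Sf.Il2-/- (adjusted p = 0.642) and -1.26 ± 0.44 in Sf (adjusted p = 0.144).

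**Figure D1:**
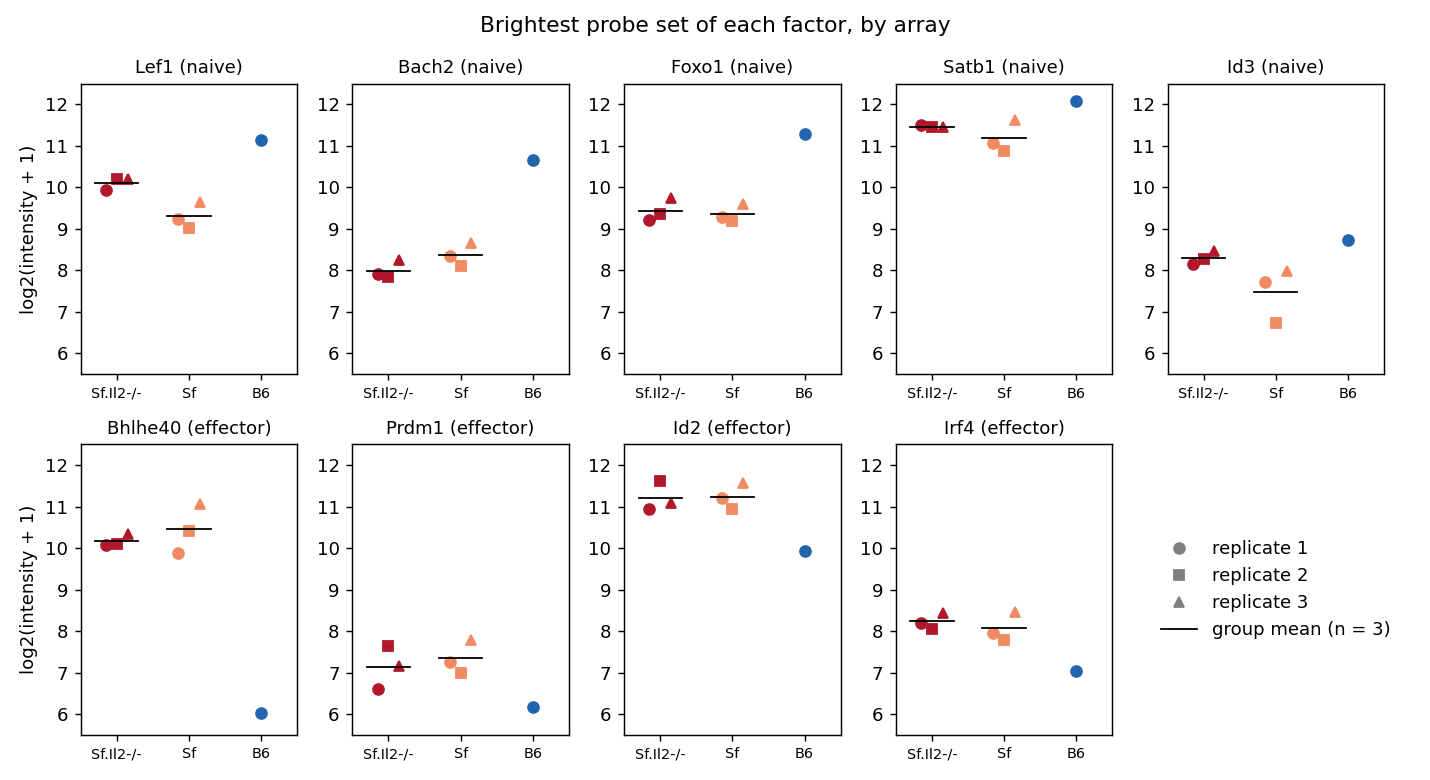
Level of each measured factor in the 7 arrays, as log2(intensity + 1) of its brightest probe set (vertical axis), with Sf.Il2-/-, Sf and B6 from left to right, marker shapes for replicates and lines for means of 3 arrays. The 5 naive factors sit below B6 in all 6 mutant arrays and the 4 effector factors above it, with Bhlhe40 between 9.89 and 11.06 in the mutants and at 6.04 in B6.

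Bhlhe40, the basic helix-loop-helix factor that activated T cells use to make cytokines, changed most. It read 10.07, 10.09 and 10.34 in Sf.Il2-/-, 9.89, 10.40 and 11.06 in Sf, and 6.04 in B6. The lowest mutant array was 3.85 above B6, and the Sf.Il2-/- arrays all fell within the range of Sf. It rose by 4.13 ± 0.40 in Sf.Il2-/- (17.5-fold, adjusted p = 0.00172) and by 4.41 ± 0.40 in Sf (21.3-fold, adjusted p = 0.00166). These were the 13th and 6th largest rises of all tested genes.

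Id2 came next among the effector factors and missed the threshold. Its values were 10.94, 11.62 and 11.08 in Sf.Il2-/-, 11.20, 10.94 and 11.56 in Sf, and 9.93 in B6. The mutants shared one range, about 1 or more above B6. The differences were 1.28 ± 0.31 in Sf.Il2-/- (adjusted p = 0.0687) and 1.30 ± 0.31 in Sf (adjusted p = 0.0613). Without Sf 2 (adjusted p = 0.0441 and 0.0418) or without Sf 3 (adjusted p = 0.0134 and 0.0156) both passed. With the mean of its probe sets the difference of Id2 in Sf was 0.70 (adjusted p = 0.39). Over the alternatives the difference in Sf.Il2-/- was as low as 0.72, with adjusted p up to 0.427.

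Irf4 and Prdm1 stood 1.94-fold to 2.29-fold above B6 and did not pass either. Irf4, which pairs with BATF and AP-1 on DNA, read 8.20, 8.06 and 8.44 in Sf.Il2-/-, 7.96, 7.79 and 8.46 in Sf, and 7.04 in B6. Its differences were 1.20 ± 0.33 in Sf.Il2-/- (adjusted p = 0.102) and 1.03 ± 0.33 in Sf (adjusted p = 0.123), and without Sf 3 both passed (adjusted p = 0.0126 and 0.0328). Prdm1, the gene of the repressor BLIMP-1, read 6.59, 7.64 and 7.16 in Sf.Il2-/-, 7.26, 6.99 and 7.78 in Sf, and 6.17 in B6. It was the dimmest member, and Sf.Il2-/- 1 lay only 0.42 above B6. Its differences were 0.96 ± 0.43 in Sf.Il2-/- (adjusted p = 0.268) and 1.17 ± 0.43 in Sf (adjusted p = 0.155).

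The counts against B6 depended on Sf 3. Without it 4 naive and 3 effector factors passed in Sf.Il2-/-, and 5 and 3 in Sf, while 1560 and 3509 of all genes passed in place of 308 and 283. Without Sf.Il2-/- 1 only 1 naive factor, Bach2, passed in Sf.Il2-/-. Without Sf 2 there were 2 effector factors in each mutant. After quantile normalization 3 naive factors passed in each mutant, Lef1 being added in Sf.Il2-/-, and 3 effector factors in each, Id2 and Irf4 with Bhlhe40. More of all genes passed too, 730 in Sf.Il2-/- in place of 308 and 554 in Sf in place of 283. Quantile normalization called 488 genes higher and 242 lower in Sf.Il2-/-, and 391 higher and 163 lower in Sf. With that scaling the all-gene median was 0.062 in Sf.Il2-/- (-0.14 without) and 0.026 in Sf (-0.25 without), and the share of calls that were higher was 66.8% in Sf.Il2-/- (55.5% without) and 70.6% in Sf (53% without). Within array set 2 alone, without a test, Bach2 differed from B6 by -2.41 in Sf.Il2-/- and -1.99 in Sf, Foxo1 by -1.52 and -1.68, and Bhlhe40 by 4.30 and 5.02.

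**Figure D2:**
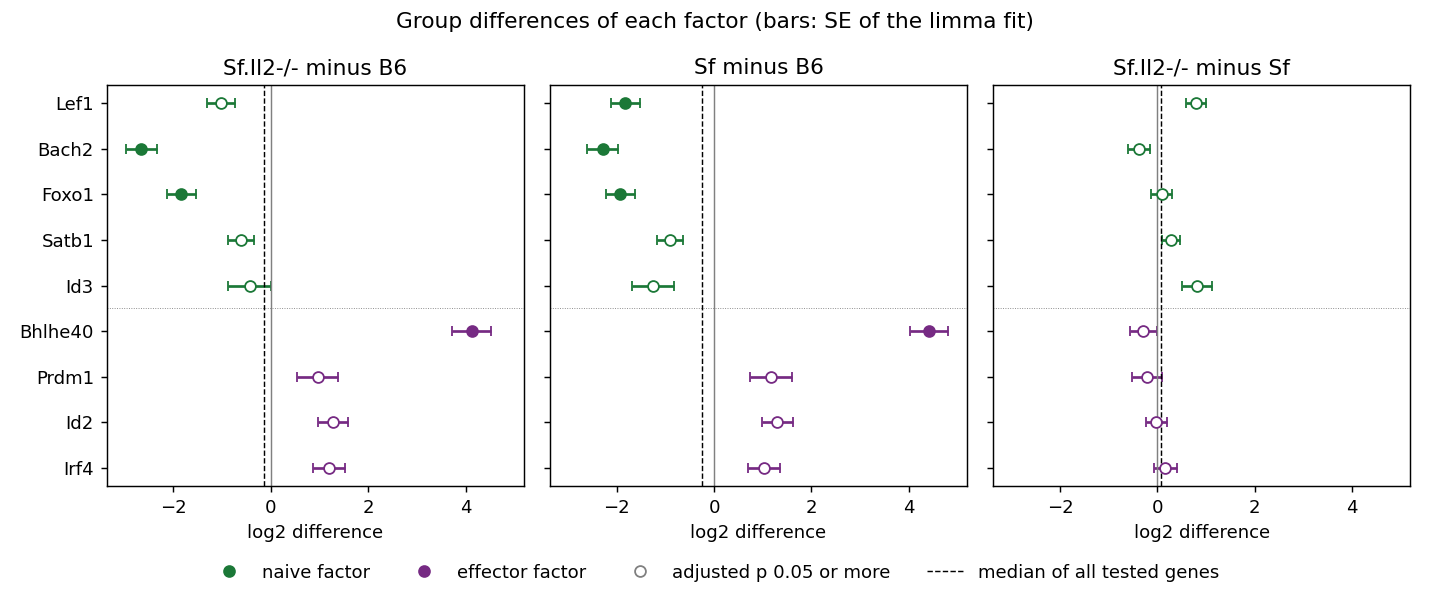
Log2 difference of each factor (horizontal axis) for Sf.Il2-/- minus B6, Sf minus B6 and Sf.Il2-/- minus Sf, with bars for the SE of the fit, filled points for adjusted p under 0.05 and a dashed line at the median of all tested genes. Bach2, Foxo1 and Bhlhe40 are filled in both comparisons with B6, Lef1 in Sf alone, and none between the mutants.

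The probe sets of a gene read different parts of its transcripts, and the 9 genes had 22, of which 21 passed the filter as features of their own. Of the 15 naive probe sets 14 were lower than B6 in each mutant, and of the 7 effector probe sets 6 were higher. Fitted with every probe set as a feature, 5 naive probe sets fell in Sf.Il2-/- and 7 in Sf, and 1 effector probe set rose in each, against 1.7% and 1.51% of all 20617 probe sets called in either direction. Between the mutants 0 of them passed (limma, against 0.112% of probe sets). The 3 bright probe sets of Foxo1 differed by -1.84, -2.00 and -2.00 in Sf.Il2-/- and by -1.93, -2.24 and -2.15 in Sf, each past the threshold. The fourth read 2.82 to 3.97 in all arrays, near the floor, and did not pass the filter. It lay 0.08 above B6 in Sf.Il2-/- and 0.10 above it in Sf. For Lef1 the dimmer probe set read 7.67, 8.52 and 9.03 in Sf.Il2-/-, 7.27, 6.79 and 7.81 in Sf, and 9.90 in B6. It fell by 2.60 ± 0.53 in Sf (adjusted p = 0.0482), and in Sf.Il2-/- it differed by -1.49 ± 0.53 (adjusted p = 0.198).

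Besides the fourth probe set of Foxo1, one of Bach2 and one of Id2 departed from the brightest probe set of their gene. For Bach2 the second probe set fell by 2.72 in Sf.Il2-/- (adjusted p = 0.0141) and it fell by 2.38 in Sf (adjusted p = 0.0224), but the third and dimmest read 6.68 to 6.96 in Sf.Il2-/-, 6.41 to 7.16 in Sf and 7.01 in B6. That is a difference of -0.23 ± 0.33 in Sf.Il2-/- (adjusted p = 0.757) and -0.22 ± 0.33 in Sf (adjusted p = 0.712). For Id2 the second probe set was above B6 by 1.59 in Sf.Il2-/- and 1.33 in Sf, while the third read 6.33, 7.17 and 6.71 in Sf.Il2-/-, 6.78, 6.08 and 7.92 in Sf, and 7.45 in B6. The last differed from B6 the other way, by -0.71 ± 0.60 in Sf.Il2-/- (adjusted p = 0.565) and -0.52 ± 0.60 in Sf (adjusted p = 0.622), without passing. For Satb1 the 5 probe sets ranged from -1.52 to -0.41 in Sf.Il2-/- and from -1.11 to -0.41 in Sf, and 0 passed (limma, adjusted p 0.0795 or more). The second probe set of Irf4 was above B6 by 1.26 in Sf.Il2-/- and 0.90 in Sf. Id3, Bhlhe40 and Prdm1 had 1 probe set each, so nothing else on the array measures them here.

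**Figure D3:**
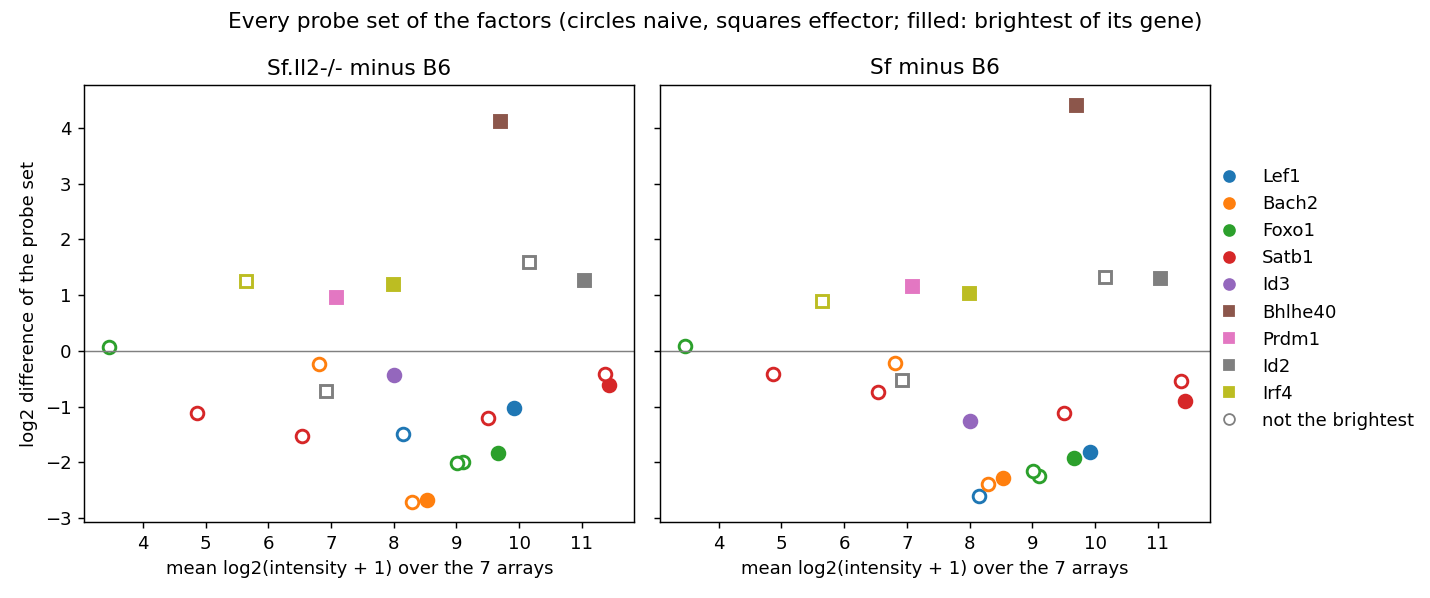
Log2 difference from B6 of all 22 probe sets of the factors (vertical axis) against their mean log2 level over the 7 arrays (horizontal axis), for Sf.Il2-/- on the left and Sf on the right. Filled markers are the brightest probe set of each gene. One Id2 probe set and 1 of Bach2 at a level near 7 lie apart from the brighter probe sets of their genes, as does 1 of Foxo1 near 3.5.

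Between the mutants, the question is what the loss of Il2 changes on a Foxp3 mutant background. None of the 9 factors passed the threshold there by limma, 2 of them at an unadjusted p under 0.05 (Lef1 and Id3), against 0.279% of all genes called (32) and 7.92% at that unadjusted level. With replicate numbers as a block 60 genes passed, including all 32, and again none of the factors, with Lef1 lowest at an adjusted p of 0.14. Lef1 was higher by 0.80 ± 0.21 (log2 ± SE over 3 arrays and 3, 95% interval 0.33 to 1.27, adjusted p = 0.316). Id3 was higher by 0.82 ± 0.31 (interval 0.13 to 1.52, adjusted p = 0.531). In these 2 alone the groups did not overlap, against 8.39% of all genes higher without overlap and 3.72% lower. Satb1 was higher by 0.28 (interval -0.15 to 0.70), though at -0.067 after quantile normalization.

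The other factors overlapped between the mutants. Bach2 differed by -0.38 ± 0.23 (interval -0.88 to 0.13, adjusted p = 0.788), and Foxo1 by 0.09 ± 0.21 (interval -0.39 to 0.57). Bhlhe40 differed by -0.28 ± 0.28 (interval -0.91 to 0.35, adjusted p = 0.892). Prdm1 was at -0.21 (interval -0.89 to 0.47), Id2 at -0.02 (interval -0.51 to 0.47) and Irf4 at 0.17 (interval -0.36 to 0.69). Every one of these 6 intervals holds 0. Leaving out Sf 3 let 3 naive factors pass, all higher in Sf.Il2-/-. They were Lef1 (0.97, adjusted p = 0.017), Satb1 (0.49, adjusted p = 0.0419) and Id3 (1.07, adjusted p = 0.0468), with 854 of all genes passing. Taken inside each array set, Lef1 differed by 0.93 in set 1, where it passed (adjusted p = 0.0296), and by 0.54 in set 2, Id3 by 0.99 and 0.49, and Satb1 by 0.50 and -0.18.

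Set side by side, the classes parted from each other in every mutant array. The median difference of the 5 naive factors from B6 was -1.19, -0.93 and -0.94 in Sf.Il2-/- and -1.89, -2.10 and -1.47 in Sf, while that of all genes was -0.08 to -0.19 in Sf.Il2-/- and -0.10 to -0.41 in Sf. The median of the 4 effector factors was 1.09, 1.58 and 1.27 in Sf.Il2-/- and 1.18, 0.91 and 1.62 in Sf. The gap between the class medians was 2.28, 2.51 and 2.21 in Sf.Il2-/- and 3.06, 3.01 and 3.09 in Sf, and after quantile normalization 2.16, 2.43 and 2.07 in Sf.Il2-/- and 2.79, 2.77 and 3.02 in Sf. The mutants did not overlap in this gap, a description of 9 chosen genes that carries no test. In 5 of the 6 mutant arrays the naive median was the value of Lef1, so the gap follows that gene, while Bach2 and Foxo1 overlapped between the mutants. With the mean of each gene's probe sets the gap in the fit was 2.35 in Sf.Il2-/- and 2.62 in Sf, against 2.26 and 3.06 with the brightest probe set. In the fit the naive median was -1.02 in Sf.Il2-/- and -1.82 in Sf, or -0.88 and -1.57 relative to all genes, and the effector median was 1.24 in each, or 1.38 and 1.48 relative to all genes. Between the mutants the naive median was 0.28 and the effector median -0.12, with all genes at 0.08, and after quantile normalization the naive median was -0.067.

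**Figure D4:**
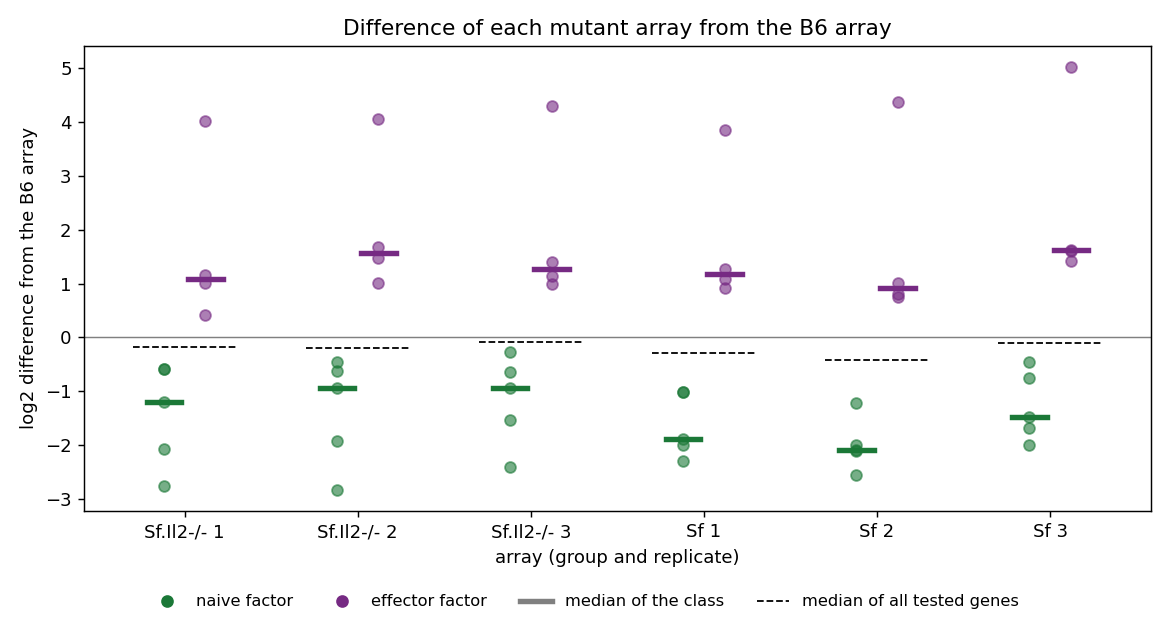
Log2 difference of each factor from the B6 array (vertical axis) in the 3 Sf.Il2-/- arrays and then the 3 Sf arrays (horizontal axis), with thick lines at the class medians and dashed lines at the median of all tested genes. The naive medians lie between -0.93 and -1.19 in Sf.Il2-/- and between -1.47 and -2.10 in Sf, and the effector medians between 0.91 and 1.62 in all 6.

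Markers of the cells themselves and of other cells moved with these groups, and their part in the differences was not tested. In bulk RNA, fewer cells of a kind and less RNA per cell cannot be told apart. The 8 measured of 10 CD4 T cell markers summed to an intensity of 17604 to 18885 in Sf.Il2-/-, 10846 to 14868 in Sf and 21035 in B6. Of the naive factors Lef1 and Id3 had that order without overlap, while Bach2 did not have it by group means. Not every marker kept it. Cd3g read 11.635 to 11.855 in Sf.Il2-/-, 11.036 to 11.338 in Sf and 11.687 in B6. Cd28 read 10.9 to 11.382 in Sf.Il2-/-, 10.525 to 10.735 in Sf and 11.289 in B6. The 9 measured of 10 B and plasma cell markers summed to 2011 to 2209 in Sf.Il2-/-, 1000.3 to 1828 in Sf and 3112 in B6, most of it Ighm. Within that list Jchain, a plasma cell gene, ran the other way in some arrays, at 6.227, 5.015 and 4.147 in Sf.Il2-/-, 7.455, 3.98 and 5.53 in Sf, and 4.61 in B6. Pax5 read 5.06 to 5.88 in Sf.Il2-/-, 4.84 to 6.06 in Sf and 5.33 in B6, and Cd79b 3.99 to 4.32 in Sf.Il2-/-, 5.10 to 5.30 in Sf and 4.89 in B6. The other 5, among them Cd79a, Ms4a1 and Ebf1, read under 5 in every array. Of the NK cell markers, 6 of 7 summed to 1888 to 3316 in Sf.Il2-/-, 824 to 1957 in Sf and 396 in B6, above B6 as Id2 and Prdm1 were. Most of that sum came from Nkg7 and Eomes, which T cells also express. Klrk1 read 4.005 to 4.295 in Sf.Il2-/-, 5.841 to 6.175 in Sf and 4.66 in B6, and Tyrobp 4.46 to 5.62 in Sf.Il2-/-, 4.33 to 5.11 in Sf and 4.27 in B6, while Klra8 read at most 3.95 and Ncr1 at most 3.12. The 8 dendritic cell markers, relevant to Id2 and Irf4, summed to 177 to 356.5 in Sf.Il2-/-, 272 to 385 in Sf and 150 in B6. H2-Aa, a class II gene, was above B6 in all 6 mutant arrays, at 5.28, 7.42 and 5.47 in Sf.Il2-/-, 7.67, 6.90 and 7.16 in Sf, and 4.76 in B6. Itgax read 4.94 to 5.96 in Sf.Il2-/-, 4.805 to 4.997 in Sf and 4.72 in B6, Batf3 4.95 to 5.29 in Sf.Il2-/-, 5.26 to 5.36 in Sf and 4.70 in B6, and Zbtb46 4.49 to 5.02 in Sf.Il2-/-, 4.34 to 5.46 in Sf and 4.54 in B6. The other 4 read at most 5.04, and Flt3 at most 3.08. The neutrophil transcript S100a8 read 7.63 in Sf.Il2-/- 2 and 6.37 in Sf 1, against 2.53 to 4.10 in the other arrays, and without these 2 arrays the same factors passed as with them. Of the genes named below, Pdk1 and Peli1 lost their calls without the pair in Sf.Il2-/- (adjusted p = 0.0672 and 0.333), and between the mutants Jup and Cxcr5 passed.

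Genes that work with the naive factors were followed through lists written with earlier results of these data known. Of 26 other naive and quiescence factors 2 fell and 0 rose in each mutant, where 1.2% of all genes fell in Sf.Il2-/- and 1.16% in Sf, with list medians of -0.43 in Sf.Il2-/- and -0.56 in Sf relative to all genes. Foxp1, a forkhead factor of quiescence, fell by 2.05 ± 0.32 in Sf.Il2-/- (adjusted p = 0.014), and it fell by 1.79 ± 0.32 in Sf (adjusted p = 0.024), the second lost without Sf 1 (adjusted p = 0.0546) and with quantile normalization (-1.21, adjusted p = 0.0915). Klf3, a Krüppel-like repressor, fell by 1.63 ± 0.26 in Sf (adjusted p = 0.0164), and with quantile normalization it was at -1.04 and did not pass (adjusted p = 0.052). Peli1, the gene of a ubiquitin ligase that restrains T cell activation, fell by 1.08 ± 0.24 in Sf.Il2-/- at the edge of the threshold (adjusted p = 0.0499). It lost the call in 11 of 15 alternatives (adjusted p up to 0.333). Among them was leaving out any 1 mutant array other than Sf 2 or Sf 3 (adjusted p up to 0.147). Leaving out Sf 3 raised the count to 7 in Sf.Il2-/- and 18 in Sf, all lower, when 8.91% of all genes were called lower in Sf.Il2-/- and 24.7% in Sf. With array set as a block the count in Sf.Il2-/- was 4, 3 of them lower, when 721 of all genes passed in place of 308. Leaving out Sf 1 or any Sf.Il2-/- array made it 1 in Sf.Il2-/-, as Sf 1 did in Sf.

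Of 16 measured genes of the FOXO family, its kinases and its targets, 5 fell in Sf.Il2-/- and 3 in Sf, and 0 rose. Over all genes 1.2% were called lower in Sf.Il2-/- and 1.16% in Sf. The list medians relative to all genes were -0.73 in Sf.Il2-/- and -0.62 in Sf. Sesn1, a stress-induced FOXO target, fell by 2.98 ± 0.42 in Sf.Il2-/- (adjusted p = 0.0103), and it fell by 3.10 ± 0.42 in Sf (adjusted p = 0.00817). S1pr1, the receptor that guides T cells out of lymph nodes, fell by 1.68 ± 0.32 in Sf.Il2-/- (adjusted p = 0.0319), and it fell by 1.94 ± 0.32 in Sf (adjusted p = 0.0188). Foxp1, given above, stood in this list too. Pdk1, which under this symbol is a pyruvate dehydrogenase kinase and not the kinase upstream of AKT, fell by 1.53 ± 0.30 in Sf.Il2-/- (adjusted p = 0.0341). Without Sf 3 the counts were 7 in Sf.Il2-/- and 8 in Sf, when 8.91% and 24.7% of all genes were called lower. The count in Sf.Il2-/- was 2 without Sf 1, Sf.Il2-/- 1 or Sf.Il2-/- 2 and 3 without Sf.Il2-/- 3, the calls of S1pr1 and Pdk1 being among those lost, and it was 2 in Sf without Sf 1. With no filter on dim genes the count in Sf.Il2-/- was 2, S1pr1 and Pdk1 not passing (adjusted p = 0.0568 each), and with quantile normalization Pdk1 did not pass (adjusted p = 0.0552). Sesn1 passed in both mutants under all 15 alternatives.

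Of 17 partners of TCF-1 and LEF-1, Bcl9l, a coactivator of beta-catenin, fell in each mutant and the other 16 did not pass. Over all genes 1.2% were called lower in Sf.Il2-/- and 1.16% in Sf. Bcl9l read 6.69, 6.31 and 7.59 in Sf.Il2-/-, 6.87, 6.62 and 6.88 in Sf, and 8.85 in B6. It fell by 1.98 ± 0.43 in Sf.Il2-/- (adjusted p = 0.0478), and it fell by 2.06 ± 0.43 in Sf (adjusted p = 0.0424). The first call was lost without Sf 1, Sf.Il2-/- 1 or Sf.Il2-/- 2 (adjusted p up to 0.125) and the second without Sf 1, Sf 2 or Sf.Il2-/- 1 (adjusted p up to 0.077). Neither passed with no filter (adjusted p = 0.098 in Sf.Il2-/- and 0.0863 in Sf) or without the intensity trend (0.0637 and 0.0603), nor did that in Sf.Il2-/- with median-centred arrays (0.0515), and by the mean of its probe sets Bcl9l was not tested. The count in Sf was 2 with a filter at 6, with quantile normalization, with array set as a block and without the 2 arrays highest in S100a8. Without Sf 3 the list held 3 calls in Sf.Il2-/-, all lower, and 10 in Sf, 9 of them lower. In that setting 8.91% of all genes were called lower in Sf.Il2-/- and 24.7% in Sf. The count in Sf was 2 without Sf.Il2-/- 2 or Sf.Il2-/- 3. Of the 5 measured E proteins and related genes 0 passed in any comparison (limma; 0 at an unadjusted p under 0.05), the lowest p against B6 being that of Tcf12, the E protein HEB, at -0.52 in Sf.Il2-/- (adjusted p = 0.343) and -0.58 in Sf (adjusted p = 0.242). Without Sf 3 Tcf12 passed in Sf (adjusted p = 0.0449), and after quantile normalization its difference there was 0.02.

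On the effector side, 3 of 24 other lineage factors rose in each mutant and 0 fell, where 1.49% of all genes rose in Sf.Il2-/- and 1.31% in Sf, with list medians relative to all genes of 0.44 in Sf.Il2-/- and 0.50 in Sf. Maf, which drives Il4 and Il10, rose by 1.84 ± 0.27 in Sf.Il2-/- (adjusted p = 0.0114) and by 1.85 ± 0.27 in Sf (adjusted p = 0.0115). The other 2 calls in Sf.Il2-/- were Eomes, a T-box factor (2.52 ± 0.50, adjusted p = 0.0346), and Rora, a nuclear receptor (2.37 ± 0.49, adjusted p = 0.0383). In Sf they were Ahr, the aryl hydrocarbon receptor (2.24 ± 0.34, adjusted p = 0.0127), and Nfil3, a basic leucine zipper factor (3.00 ± 0.62, adjusted p = 0.0407). Of these, only for Ahr did the mutants themselves differ past the threshold, and it fell by 1.53 ± 0.24 in Sf.Il2-/- relative to Sf (adjusted p = 0.0437). That call was lost in 9 of 18 alternatives, among them no filter (adjusted p = 0.0929), median-centred arrays (0.0687), the mean of probe sets (0.0624) and no trend (0.0547). It was also lost when any mutant array other than Sf 3 was left out, giving a count of 0. Without Sf 3 this list held 8 calls between the mutants (5 higher, 3 lower in Sf.Il2-/-). In that setting 5.85% of all genes were called higher and 1.61% lower. In Sf.Il2-/- Eomes lost the call without Sf.Il2-/- 2 or 3 and Rora without any one Sf.Il2-/- array, the count being 1 without Sf.Il2-/- 2 or 3. With no filter neither passed (adjusted p = 0.0687 and 0.0732), and Rora was at 1.54 by the mean of its probe sets (adjusted p = 0.0566) and lost the call with no trend (0.051). With quantile normalization 5 of the list rose in Sf.Il2-/-, when 488 of all 11460 genes were called higher in place of 171. In Sf Nfil3 lost it in 7 of 15 alternatives (adjusted p up to 0.086), among them leaving out Sf 1 (0.0744) or Sf 2 (0.0629). The count in Sf was 5 without Sf 3 (4 higher, 1 lower), when 5.92% of all genes were called higher and 24.7% lower. Maf in both mutants and Ahr in Sf passed under all 15.

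Among 18 measured partners of BACH2 and IRF4 at composite sites, Maf and Batf rose in Sf.Il2-/- and Maf in Sf, and 0 fell. Over all genes 1.49% were called higher in Sf.Il2-/- and 1.31% in Sf. Batf, the AP-1 factor that binds DNA with IRF4, read 10.57, 10.59 and 10.69 in Sf.Il2-/-, 9.55, 9.32 and 10.50 in Sf, and 8.02 in B6. It rose by 2.60 ± 0.41 in Sf.Il2-/- (adjusted p = 0.014). Batf passed under all 15 alternatives. The count in Sf was 2 without Sf 2, with a filter at 6 or with quantile normalization, 3 with array set as a block or without the 2 arrays highest in S100a8, and 6 without Sf 3 (2 higher, 4 lower). Of all genes, 554 passed in Sf with quantile normalization and 605 with array set as a block, in place of 283. Without Sf 3, 5.92% of all genes were called higher in Sf and 24.7% lower. In Sf.Il2-/- the list count was 4 with array set as a block (3 higher, 1 lower), when 721 of all genes passed in place of 308. Of 8 measured antagonists and targets of BLIMP-1, Cxcr5, the follicular homing receptor, rose by 2.96 ± 0.54 in Sf.Il2-/- (adjusted p = 0.0261), a call lost without any one Sf.Il2-/- array or with no filter (adjusted p = 0.0568). The count in Sf.Il2-/- was 2 with array set as a block, without Sf 3 and without the 2 arrays highest in S100a8. Of all genes, 721 passed there with the block and 1560 without Sf 3. In Sf 0 of the 8 passed (limma, with 2 at an unadjusted p under 0.05), against 2 without Sf 3, all lower, and 1 with quantile normalization. Leaving out Sf 3 called 24.7% of all genes lower in Sf, near the share of these 8, and quantile normalization called 391 of 11460 higher. Nab2, a corepressor, was at -1.04 in Sf (adjusted p = 0.204). Between the mutants Ahr was the only call in these lists, and Cxcr5 was at 2.02 (adjusted p = 0.099) and passed without Sf 3 (adjusted p = 0.00411). Jup, plakoglobin, was at -2.82 between the mutants (adjusted p = 0.279), with Sf.Il2-/- 2 at 5.65 and the other Sf.Il2-/- arrays at 2.64 and 2.75, and with the replicate block or without Sf.Il2-/- 2 it passed (adjusted p = 0.00539 without it). Klf3 was at 0.81 there (adjusted p = 0.198) and passed without Sf 3 (adjusted p = 0.0299), when 6 genes of its list did, all higher, as did 5.85% of all genes. In array set 1 alone Klf3 (adjusted p = 0.0272) and Cxcr5 (0.00828) passed as well.

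By the mean profile of each class over the 7 arrays, the most alike of the tested genes outside the class were named. For the naive factors they were Kpna4, an importin alpha gene, Nelfa, a subunit of the negative elongation factor, and Paxx, a DNA end-joining factor, with Pearson r of 0.997, 0.996 and 0.996. Kpna4 read 9.82 to 9.99 in Sf.Il2-/-, 9.62 to 9.91 in Sf and 10.54 in B6, a much smaller step than that of Bach2. For the effector factors they were Havcr2, the gene of the inhibitory receptor TIM-3, Slc15a3, a histidine and peptide transporter, and Pkdcc, a secreted kinase, with r of 0.995, 0.991 and 0.990. Havcr2 read 5.27 to 6.30 in Sf.Il2-/-, 5.27 to 7.10 in Sf and 1.99 in B6, near the floor. The points share the 7 arrays and their scale, and the single B6 array lies apart from the rest, so these values describe likeness and are not tested.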

How the data were processed

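The deposited table holds the authors' intensity for 45037 probe sets from 7 Affymetrix arrays, unlogged. Per the submitters' processing notes GCRMA and GCOS were used, in a role, order and version not given in the sources used here. Upper quartiles differ between arrays, so no quantile normalization is visible. Of the probe sets 34945 name 1 gene in the array annotation, 932 several and 9160 none, while Entrez numbers gave present-day symbols (GRCm38.p6) for 34741 of those with 1. No pair of arrays shared values in over 0.535% of probe sets.

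From the deposited intensities log2(intensity + 1) was computed, and the brightest probe set on average stood for its gene. Genes whose highest group mean was at least 5 (11460) entered limma 3.58.1 (R 4.3.3) as 1 fit of 3 group means with an intensity trend, Benjamini-Hochberg adjustment and a threshold of 0.05 (residual degrees of freedom 4, moderated 9.57), and likewise for every probe set as its own feature. The fit was tested on simulated data. Intervals are 95% from the moderated SE. The number of arrays limits the precision. Figures used matplotlib 3.10.9.

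The members, lists and tests were chosen with earlier results of these data known. Named genes are the 10 members, up to 4 called genes per list and comparison (or that with the lowest p), and the 3 genes most alike to each class. Replicate numbers come from the titles. Deviations from the group means of same-numbered Sf and Sf.Il2-/- arrays correlated at 0.301, 0.211 and 0.505, so a replicate block was tried. Other settings changed the filter, the scaling, the pseudocount, the trend, the choice of probe set, the arrays used and the array set. Cell type markers were CD4 T, CD8 T, B, NK, macrophage, dendritic, neutrophil, erythroid and regulatory T cell lists, of which CD8 T (151 to 201 summed in Sf.Il2-/-, 146 to 201 in Sf, 312 in B6), macrophage (621 to 1201, 641 to 956, 872), erythroid (27.8 to 45.1, 33.1 to 51.2, 79.1), neutrophil (215.5 to 599, 201 to 394, 239) and regulatory T cell sums (3540.2 to 5436, 5862 to 7671, 4012) are not used further.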

Additional observations from a re-analysis of the deposited data

How the results depend on the processing

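Bach2 and Bhlhe40 kept their direction and call against B6 in both mutants under all 15 alternatives with a test, as did Foxo1 in Sf. Over the factors, 404 of 459 values counted as kept, 3 lost a call, 21 gained one, 18 moved, and 13 tested values turned sign, all between the mutants. A tested value counted as kept if it held its direction and side of the threshold. Values of array set 2 alone have no test and counted as kept or moved by their distance from the main value, not by sign.

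Effector minus naive median: 2.85 (quantile normalization), 2.95 (pseudocount 16), 2.62 (mean of probe sets) and 3.01 (array set as a block) in Sf v B6, in place of 3.06, and -0.70 in array set 2 for Sf.Il2-/- v Sf, in place of -0.39. Leaving out 1 array gave 3.04 to 3.08 in Sf v B6, 2.25 to 2.28 in Sf.Il2-/- v B6 and -0.52 to -0.17 between the mutants. Effector calls were 3 with quantile normalization and 2 with array set as a block in either mutant against B6, and 1 to 3 without 1 array. Naive calls were 1 with the mean of probe sets in Sf.Il2-/- v B6 and 1 in array set 1 alone between the mutants. Without 1 array they were 2 to 5 in Sf v B6, 1 to 4 in Sf.Il2-/- v B6 and 0 to 3 between the mutants.

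All-gene calls in Sf v B6 were 161 with no filter, 554 with quantile normalization, 188 with the mean of probe sets, 605 with array set as a block and 118 to 3509 without 1 array. In Sf.Il2-/- v B6 they were 138 with no filter, 730 with quantile normalization, 721 with array set as a block and 129 to 1560 without 1 array. Between the mutants they were 11 with no filter, 52 without the 2 arrays highest in S100a8, 74 with array set as a block, 60 with the replicate block, 571 in array set 1 and 8 to 854 without 1 array. The replicate block changed no call of a factor, and of the named genes it changed that of Jup alone. No paired analysis was possible against B6, which has 1 array.

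Signs between the mutants turned for Foxo1 (-0.12) and Satb1 (-0.0674) with quantile normalization, Id2 (0.0683) with median-centred arrays, and Satb1 (-0.23) and Id2 (0.0168) with the mean of probe sets. Id2 was at 0.21 in array set 1. In array set 2 alone, without a test, Satb1 was at -0.18 (0.28 in the main fit) and Irf4 at -0.018 (0.17). Without 1 array Bhlhe40 ranged from -0.57 to 0.0203 (highest without Sf 3), Prdm1 from -0.47 to 0.0573 (above 0 without Sf 3, at 0.0084, or Sf.Il2-/- 1), Id2 from -0.22 to 0.14 (above 0 without Sf 3, Sf.Il2-/- 1 or Sf.Il2-/- 3), and Foxo1 from -0.0693 to 0.21 (lowest without Sf.Il2-/- 3). Tcf12 in Sf v B6 was at 0.025 with quantile normalization. Among the other named genes, Sesn1, Maf and Foxp1 in Sf.Il2-/-, and Sesn1, Maf, S1pr1 and Ahr in Sf, kept their calls against B6 in all 15 alternatives with a test, as did Batf in Sf.Il2-/-. The cause was not tested.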
